A study of Mus musculus with 10 samples.

Results

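The genes described here are 10 antioxidant and NRF2 target genes of the mouse aorta. They were chosen by name among the probes of the array that are not controls. Hmox1, Nqo1, Gclc, Gclm, Srxn1 and Txnrd1 are genes that the transcription factor NRF2 can induce, and Sod1, Sod2, Sod3 and Cat encode the superoxide dismutases and catalase. All 10 were among the 22520 gene names tested, of 35527 names on the array. The aortas came from 10-week-old male C57BL/6J mice whose infrarenal segment had been filled for 5 min at 100 mmHg. In 5 mice the fluid was saline alone (sham), and in the other 5 mice it was saline with type I porcine pancreatic elastase at 1.5 U/mL (PPE), a procedure used to produce an experimental abdominal aortic aneurysm. No other allele or agent is given for any of the mice. All had the same surgery, and the aorta between the left renal artery and its lower bifurcation was taken 7 days later. Each array carried RNA of 1 aorta, unpooled, in the red channel and a commercial reference RNA of pooled mouse cell lines in the green channel. The wall was measured whole, so a value here does not separate fewer cells of a type from less RNA per cell.

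NRF2, encoded by Nfe2l2, is held in the cytoplasm and sent for degradation by KEAP1 until oxidants or electrophiles modify KEAP1. It then enters the nucleus, pairs with a small MAF protein and binds antioxidant response elements in front of genes for glutathione synthesis, thioredoxin reduction, quinone detoxification and haem breakdown. BACH1 occupies the same elements and represses some of these genes, Hmox1 above all, until haem binds it. The superoxide dismutases turn superoxide into hydrogen peroxide in the cytosol (Sod1), the mitochondria (Sod2) and the extracellular matrix (Sod3), and catalase, a peroxisomal enzyme, removes hydrogen peroxide. In the aortic wall these enzymes are known for limiting the oxidative load that accompanies leukocyte entry.

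The antioxidant response element is usually written with the core TGACNNNGC. This core was searched on both strands in the promoters that RefSeq gives on GRCm38.p6, each 300 bases long from 250 before to 50 after the start of a gene. It was found in 4071 of 32851 promoters, 12.392%. Among the members 7 had a promoter entry, with 9 promoters between them, and 4 of the 9 held the core. Those 4 windows are shown because NRF2 is known to bind this core, with the match in capitals. Each match lies on the strand opposite to the gene, so that it reads GCNNNGTCA along the gene.
Gclm, chr3:122245413-122245441: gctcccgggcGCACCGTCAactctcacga
Srxn1, chr2:152105542-152105570: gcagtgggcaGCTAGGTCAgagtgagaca
Txnrd1, chr10:82859104-82859132: ctggatttttGCTTTGTCAttctgacacg
Sod1, chr16:90220696-90220724: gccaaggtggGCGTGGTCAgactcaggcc
All 4 genes lie on the plus strand. The match began 134 bases before the start in Gclm, 92 before it in Txnrd1 and 56 before it in Sod1, and 28 bases after it in Srxn1. Txnrd1 has 3 promoter entries and 1 of them held the core. No match was found in the windows of Nqo1, Sod2 and Cat, and Hmox1, Gclc and Sod3 had no entry. A match describes these letters and is not a binding site.

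The members did not move as a group. Hmox1 and Txnrd1 rose in PPE aortas, Nqo1, Gclc and Sod1 fell, and Gclm, Srxn1, Sod2, Sod3 and Cat did not pass the test, which was limma across all 22520 names with a Benjamini-Hochberg adjusted p under 0.01. Of the 10 members 2 were thus called higher, beside 13.8% of all names, and 3 lower, beside 9.96% of all names. The inducible genes split evenly, with 2 higher, 2 lower and 2 not called, and a median difference of -0.04, which was 0.52 when each array was centred on its median in place of loess, a scaling that lifted the median of all names. Of the superoxide dismutases and catalase 0 were higher, 1 was lower and 3 were not called, with a median difference of -0.75, which median centring turned to 0.13. The medians of all names were 0.02 and, with median centring, 0.41. Differences are given throughout as PPE minus sham in the log2 ratio of aorta over reference, so that 1 unit is a doubling. All 13 probes of the members had red signal well above background on all 10 arrays.

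**Figure D1:**
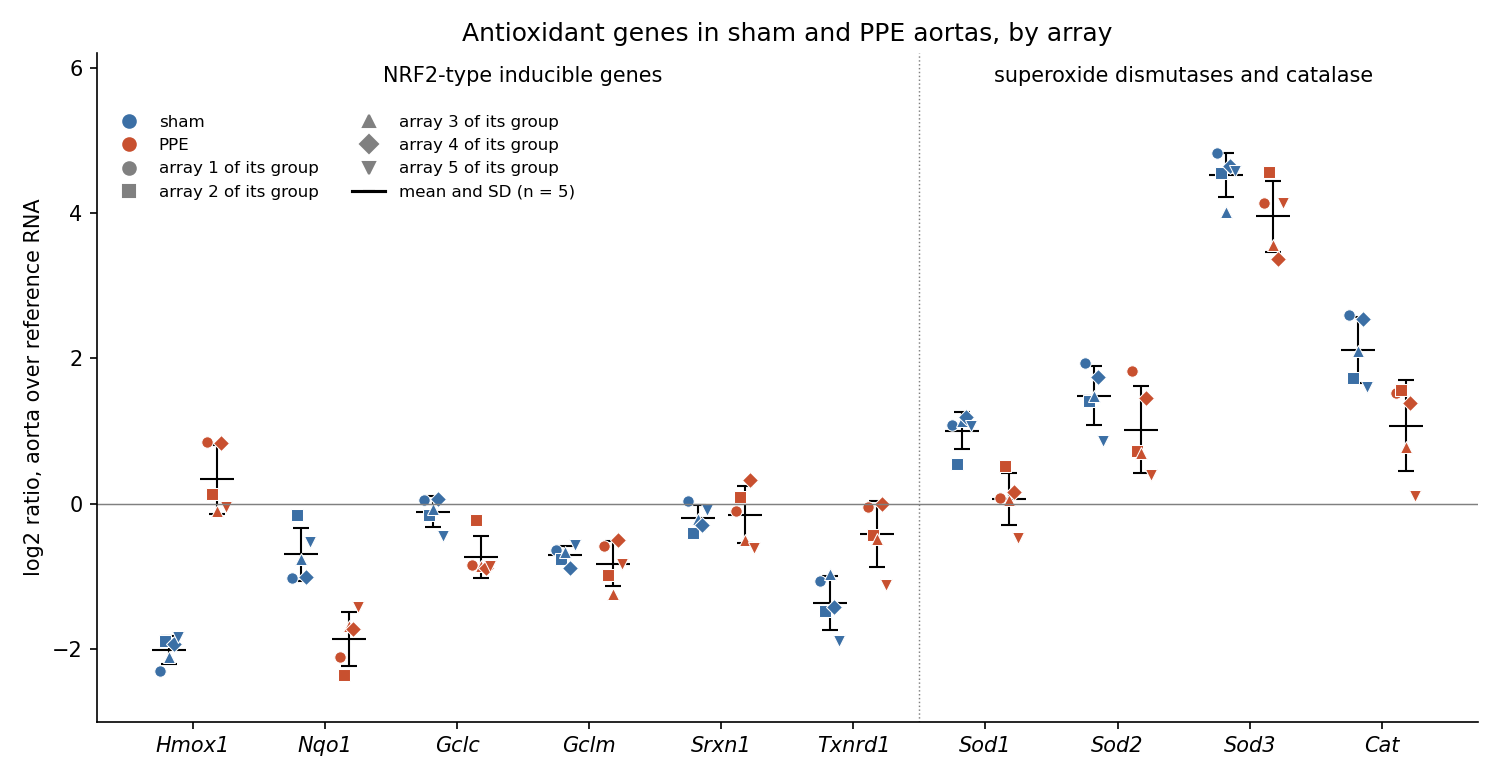
The log2 ratio of aorta over reference RNA (vertical axis) is plotted for each of the 10 genes (horizontal axis) on the 5 sham arrays (blue) and the 5 PPE arrays (red), with the shape marking the array number within its group and the bar the mean and SD. The groups are apart for Hmox1, Nqo1, Sod1 and Cat, with Hmox1 alone among these higher in PPE, and they overlap for the other genes; heights of different genes are not comparable, since each is relative to the reference RNA.

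Hmox1 encodes haem oxygenase 1, the inducible enzyme that opens the haem ring and releases biliverdin, carbon monoxide and iron. Its brightest probe, at chr8:77624207-77624266 of mm9 and starting at base 1290 of the transcript, had log2 ratios of -2.30, -1.88, -2.11, -1.93 and -1.84 on the sham arrays 1 to 5 and of 0.85, 0.13, -0.10, 0.83 and -0.04 on the PPE arrays 1 to 5. Every PPE array was far above every sham array, and PPE 1 and PPE 4 stood highest. The means were -2.01 ± 0.19 and 0.33 ± 0.47 (SD, n = 5 each), a difference of 2.34 (SE 0.21, limma adjusted p = 7.31e-06) or 5.08-fold. This was a larger rise than 98.0% of all names showed. Within slide 1 of the arrays (1 sham and 2 PPE) the difference was 2.79, and within slide 2 (2 sham and 2 PPE) it was 2.36.

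Hmox1 has another probe, at chr8:77620797-77620856, which starts at base 324 of the transcript and is shown because its change was smaller.
Hmox1, probe at base 324: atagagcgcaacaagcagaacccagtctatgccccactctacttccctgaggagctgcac
Its log2 ratios were -2.23, -1.70, -1.86, -2.07 and -1.31 in sham and -0.10, -1.11, -1.26, -0.38 and -0.54 in PPE aortas. The groups were apart on this probe too, but by less, with a difference of 1.16 (limma adjusted p = 0.00305 in the fit of all probes). The rise thus had the same direction on both probes and differed in size, and with the mean of both probes in place of the brightest the difference was 1.75.

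Nqo1 encodes NAD(P)H quinone dehydrogenase 1, which reduces quinones in a single step without radicals and is among the standard readouts of NRF2. At its probe, chr8:109912440-109912499, the log2 ratios were -1.02, -0.16, -0.76, -1.01 and -0.53 on the sham arrays and -2.11, -2.35, -1.68, -1.72 and -1.42 on the PPE arrays. All PPE values lay below all sham values. The means were -0.70 ± 0.36 and -1.86 ± 0.37 (SD, n = 5 each), so that Nqo1 fell by 1.16 (SE 0.21, limma adjusted p = 0.00121), 2.24-fold lower in PPE. The difference was -1.21 within slide 1 and -1.24 within slide 2.

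The change of Hmox1 was set against that of Nqo1 on each array, in 1 of 5 pairs of members compared in this way. Hmox1 minus Nqo1 lay between -1.72 and -0.92 on the sham arrays and between 1.37 and 2.96 on the PPE arrays. The difference was 3.51 (exact permutation test over all relabellings of the arrays, two-sided, p = 0.00794, the smallest value that 5 against 5 can give, and 0.0397 after adjustment over the 5 pairs). The pair was chosen with earlier results of these data known, so this p is no independent support.

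Gclc and Gclm encode the catalytic and the modifier subunit of glutamate-cysteine ligase, the first and rate-limiting enzyme of glutathione synthesis. Gclc, read at chr9:77641296-77641355, had log2 ratios of 0.05, -0.15, -0.07, 0.07 and -0.44 in sham and of -0.85, -0.22, -0.85, -0.89 and -0.86 in PPE aortas. Of the PPE arrays 4 lay close together below all sham arrays, and PPE 2 lay above sham 5. Gclc fell by 0.63 (SE 0.15, limma adjusted p = 0.00800), which is near the threshold, and the call held without sham 5 or without PPE 2 but not when any of the other 8 arrays was left out, with adjusted p-values up to 0.0235. The within-slide differences were -0.59 and -0.76, but with slide as a fixed block the adjusted p was 0.0121 and with the replicate number as a block 0.0141, so that the call was lost in both. The fixed slide block compares the groups on slides 1 and 2 alone. With slide as a random block the call was kept, with a difference of -0.66 (limma adjusted p = 0.00215).

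Gclm, read by a probe that spans chr3:121962174-121964809 and so crosses an intron, had log2 ratios of -0.64, -0.76, -0.67, -0.88 and -0.57 in sham and of -0.58, -0.98, -1.24, -0.49 and -0.82 in PPE aortas. The groups overlapped, and the PPE values were wider apart. The difference was -0.12 (95% interval -0.44 to 0.20, limma adjusted p = 0.578). The change of Gclc was not shown to differ from that of Gclm, since Gclc minus Gclm moved by -0.51 with an exact permutation p of 0.0794 (0.198 adjusted over the 5 pairs).

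Txnrd1 encodes the cytosolic thioredoxin reductase, a selenoprotein that keeps thioredoxin reduced with NADPH. At chr10:82360230-82360289 its log2 ratios were -1.06, -1.48, -0.96, -1.42 and -1.89 in sham and -0.05, -0.42, -0.49, -0.01 and -1.12 in PPE aortas. Of the PPE arrays 4 lay above all sham arrays, and PPE 5 lay among the sham values. The means were -1.36 ± 0.37 and -0.42 ± 0.45 (SD, n = 5 each), a rise of 0.94 (SE 0.23, limma adjusted p = 0.00803) or 1.92-fold. Sham 5 and PPE 5 were the lowest of their groups, and these are also the arrays with the smallest share of spots above background. Without both, the rise was 0.99 (adjusted p = 0.00133), but leaving out sham 2, 4 or 5, or PPE 1, 2, 3 or 4, alone ended the call, with adjusted p-values up to 0.0225.

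Srxn1 encodes sulfiredoxin, which restores overoxidised peroxiredoxins. Its log2 ratios at chr2:151937009-151937068 were 0.04, -0.40, -0.21, -0.29 and -0.09 in sham and -0.09, 0.10, -0.50, 0.32 and -0.60 in PPE aortas. The PPE values surrounded the sham values on both sides. The difference was 0.04 (95% interval -0.35 to 0.43, limma adjusted p = 0.895).

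Sod1 encodes the copper-zinc superoxide dismutase of the cytosol. Its probe at chr16:90226509-90226568 gave log2 ratios of 1.08, 0.55, 1.14, 1.20 and 1.06 in sham and of 0.08, 0.52, 0.05, 0.16 and -0.47 in PPE aortas. The groups did not overlap, but sham 2 and PPE 2 nearly met. The means were 1.01 ± 0.26 and 0.07 ± 0.35 (SD, n = 5 each), so that Sod1 fell by 0.94 (SE 0.18, limma adjusted p = 0.00187), 1.92-fold lower in PPE. Within slides 1 and 2 the differences were -0.78 and -0.74. With slide as a fixed block the difference was -0.76 and the adjusted p 0.0118, past the threshold no longer.

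Cat, the gene of catalase, had log2 ratios at chr2:103294487-103294546 of 2.60, 1.72, 2.11, 2.54 and 1.61 in sham and of 1.53, 1.57, 0.78, 1.39 and 0.11 in PPE aortas. The groups did not overlap, by a narrow margin, and they were spread more widely than those of Sod1. The means were 2.11 ± 0.45 and 1.07 ± 0.63 (SD, n = 5 each), and the difference of -1.04 (SE 0.30) had a limma adjusted p of 0.0185. Cat was therefore not called, although it passed under 7 of 24 alternatives, among them the deposited log ratios, where the difference was -1.26 (adjusted p = 0.00310). The deposited table of log2 ratios, with nearly the same values, also counts among the 7. Without both sham 5 and PPE 5 the difference of Cat was -0.93 (limma adjusted p = 0.0115). Counting groups that do not overlap, the members had 1 gene higher, beside 14.9% of all names, and 3 genes lower, Nqo1, Sod1 and Cat, beside 10.5% of all names.

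The brightest Cat probe holds a run of 16 alternating A and C bases, as long or longer in 35 of 55681 probes, or 0.0629%. Another Cat probe, spanning chr2:103297086-103300428 across an intron and starting at base 1411 of the transcript, holds no run over 5 bases and is shown for that reason.
Cat, probe at base 1411: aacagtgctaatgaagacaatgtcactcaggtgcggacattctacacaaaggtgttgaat
Its log2 ratios were 2.60, 1.52, 2.56, 2.68 and 1.06 in sham and 1.89, 1.69, 0.96, 1.67 and 0.27 in PPE aortas. Here sham 2 and sham 5 lay among the PPE values. The difference was -0.79 (limma adjusted p = 0.144 in the fit of all probes).

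Sod2 encodes the manganese superoxide dismutase of mitochondria, known to be induced by inflammatory cytokines. Its brightest probe, at chr17:13208074-13208133, had log2 ratios of 1.93, 1.41, 1.49, 1.75 and 0.87 in sham and of 1.82, 0.73, 0.70, 1.46 and 0.40 in PPE aortas. The groups overlapped, with PPE 1 and PPE 4 among the sham arrays. The difference was -0.47 (95% interval -1.09 to 0.15, limma adjusted p = 0.234), and another probe, at chr17:13231828-13231887, gave -0.14 (adjusted p = 0.382).

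Sod3 encodes the extracellular superoxide dismutase, which vascular smooth muscle secretes into the matrix. At chr5:52760685-52760744 its log2 ratios were 4.83, 4.56, 4.01, 4.64 and 4.58 in sham and 4.14, 4.57, 3.56, 3.37 and 4.14 in PPE aortas. PPE 2 lay among the sham arrays, and sham 3 among the PPE arrays. The difference was -0.57 (SE 0.23, limma adjusted p = 0.0769).

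The 3 dismutases were not shown to change by different amounts. Sod1 minus Sod2 moved by -0.47 (exact permutation p = 0.198, adjusted 0.278), Sod1 minus Sod3 by -0.37 (exact permutation p = 0.222, adjusted 0.278) and Sod2 minus Sod3 by 0.10 (exact permutation p = 0.833, adjusted 0.833). These tests do not show that the 3 genes changed alike.

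The green channel held the same reference RNA on every array. Scaled between arrays, it differed between the PPE and the sham arrays by -0.10 to 0.12 at the probes of 8 members, but by -0.50 at that of Sod3 and by -0.26 at that of Cat. In the red channel alone the difference was -1.07 for Sod3 and -1.30 for Cat, larger than in the ratio, and 2.27 for Hmox1.

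**Figure D2:**
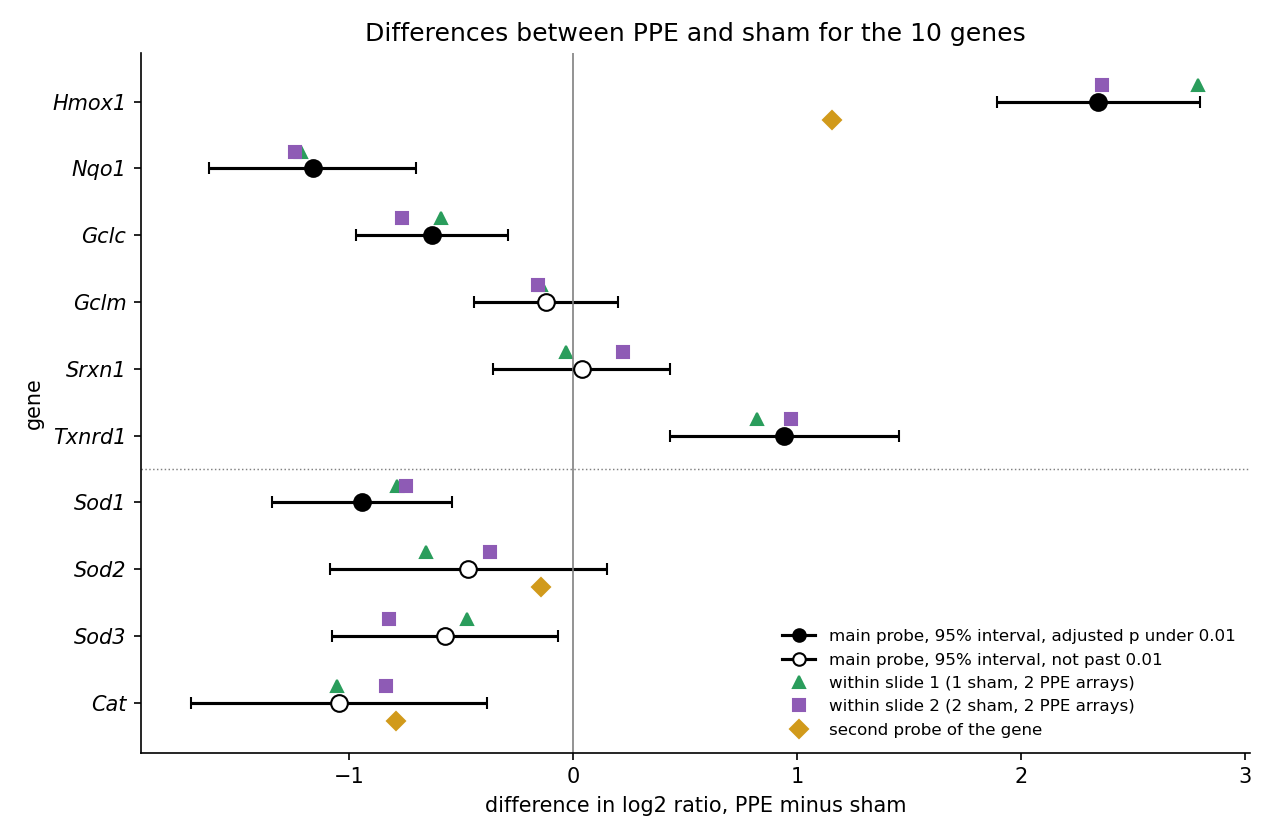
The difference in log2 ratio between PPE and sham arrays (horizontal axis) is plotted for each of the 10 genes, with its 95% interval from limma over 5 arrays a group, filled where the adjusted p was under 0.01; triangles and squares are the differences within slides 1 and 2, and diamonds are other probes of the same gene. The within-slide values lie on the same side as the pooled value for all genes but Srxn1, which lies at 0.04, and the other Hmox1 probe, at 1.16, lies well to the left of the main one.

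The calls, and the sign of several members, depended on how the arrays were scaled. With each array centred on its median in place of loess, which corrects the dye bias along the range of brightness, the median of all names moved by 0.39 to 0.41 and 0 members passed. Relative to that moved median, the differences were then 2.52 for Hmox1, 1.19 for Txnrd1, -0.96 for Nqo1, -0.42 for Sod1, -0.38 for Gclc, -0.79 for Cat, -0.13 for Sod3, -0.096 for Gclm and 0.0071 for Sod2, so that relative to all names none of them but Sod2, then near 0, changed sign. Without that reference Gclc, Gclm, Sod2 and Sod3 were at 0.03, 0.31, 0.42 and 0.28, while Hmox1 (2.92, adjusted p = 0.0182) and Txnrd1 (1.59) stayed above 0 and Nqo1 (-0.55), Sod1 (-0.01) and Cat (-0.38) below it.

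**Figure D3:**
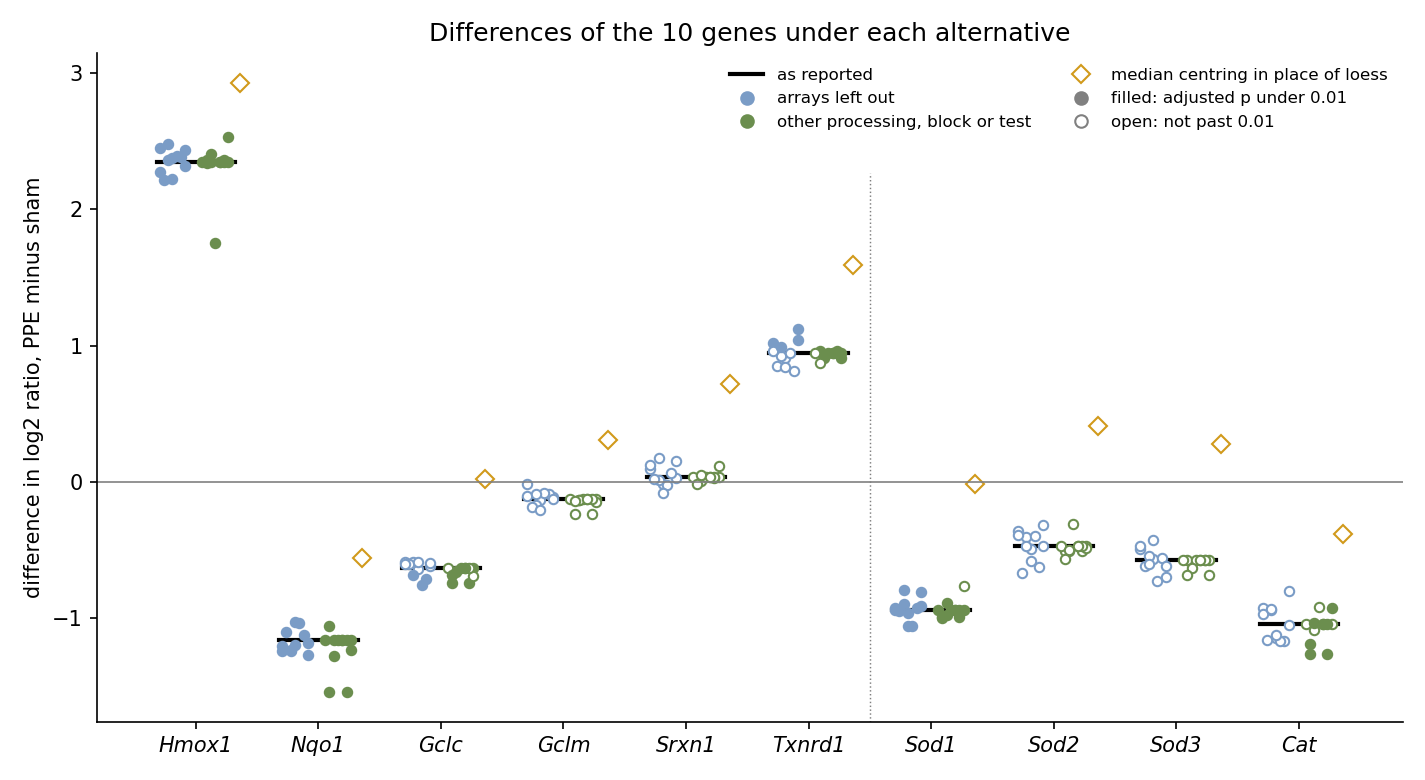
The difference in log2 ratio, PPE minus sham (vertical axis), is plotted for each of the 10 genes as reported (black line) and under each alternative (points, filled where the adjusted p was under 0.01). Hmox1 stays between 1.75 and 2.92, and the yellow diamonds of median centring lie above the other points of every gene, on the other side of 0 for Gclc, Gclm, Sod2 and Sod3, under a scaling that moved the median of all names from 0.02 to 0.41.

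Markers of other cell types moved with these genes. Of the 8 macrophage markers tested 7 were higher in PPE aortas, among them Emr1, a surface receptor of macrophages, by 3.42 and Cd68 by 2.33. The mean log2 ratio of that list lay between 0.85 and 1.23 on the sham arrays and between 2.81 and 3.99 on the PPE arrays. Of 7 neutrophil markers 6 were higher, S100a8 by 5.53, with list means of 0.20 to 0.49 in sham and 2.95 to 4.25 in PPE aortas. No marker of either list was called lower, but Mertk, a macrophage marker, differed by -0.30 (limma adjusted p = 0.541). Of all names 13.8% were higher and 9.96% lower. With red above background on all 10 arrays, 7 of 8 macrophage and 2 of 3 neutrophil markers were called. The neutrophil list means include Cxcr2, Mpo and Ngp, which were above background on no more than 6 of the 10 arrays. With median centring 2 of the macrophage and 4 of the neutrophil markers were called, again higher. The part of these cells in the rise of Hmox1 and Txnrd1 was not tested. Hmox1 is a gene that macrophages are known to express.

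Smooth muscle markers moved the other way, with 6 of 8 lower. Acta2, smooth muscle actin, fell by 2.49, while Myh11, the smooth muscle myosin heavy chain, differed by -0.74 (limma adjusted p = 0.204). The list mean lay between 3.22 and 4.39 in sham and between 1.62 and 2.85 in PPE aortas, so the labelled tissue was recognisable in both groups. Of 7 adipocyte markers 2 were lower, the brown fat genes Ucp1 (-2.94) and Cidea (-2.40), and the list mean went from 5.01 to 6.12 in sham to 3.77 to 5.29 in PPE aortas. Ucp1 and Cidea each kept the call in 20 of 24 alternatives. Both lost it with slide as a fixed block, but not as a random block. They also lost it with the deposited log ratios, where 0 adipocyte markers were called. Of 4 erythroid markers 2 were lower, Hba-a1 (-1.15, and 0.0022 with median centring, or -0.41 relative to all names) and Alas2 (-1.78), with list means of 3.03 to 4.10 and 1.88 to 2.96. Hba-a1 kept its call in 15 of 24 alternatives and Alas2 in 19. Alas2 lost it with the deposited log ratios, and without sham 4 neither was called. Of the T cell markers 2 of 5 were higher, of the fibroblast markers 2 of 5 were higher, and of the skeletal muscle markers 1 of 6 was lower, while 0 of 4 B cell and 0 of 7 endothelial markers were called. With red above background on all 10 arrays, 1 of 2 T cell, 3 of 5 fibroblast and 0 of 4 skeletal muscle markers were called. With median centring 0 markers of the smooth muscle, adipocyte, erythroid, T cell, fibroblast and skeletal muscle lists were called, and the smooth muscle median relative to all names was -1.40. The part of smooth muscle, fat and blood in the falls of Nqo1, Gclc and Sod1 was not tested.

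Array by array, PPE 2 kept the highest smooth muscle mean (2.85) and adipocyte mean (5.29) of the PPE arrays. The same array had the highest Sod1 (0.52), Gclc (-0.22), Sod3 (4.57) and Cat (1.57) of its group and the lowest Nqo1 (-2.35). PPE 1 had the highest macrophage mean (3.99) and the highest Hmox1 (0.85). Other arrays did not follow these patterns. Sham 3 had the lowest smooth muscle mean of the sham arrays (3.22) with Sod1 at 1.14. Sham 2, with a smooth muscle mean of 4.04, had the lowest Sod1 of that group (0.55). PPE 4 and PPE 2 had macrophage means of 3.29 and 3.19 but Hmox1 at 0.83 and 0.13. These arrays were picked by their values, and a link between members and marker means was not tested.

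**Figure D4:**
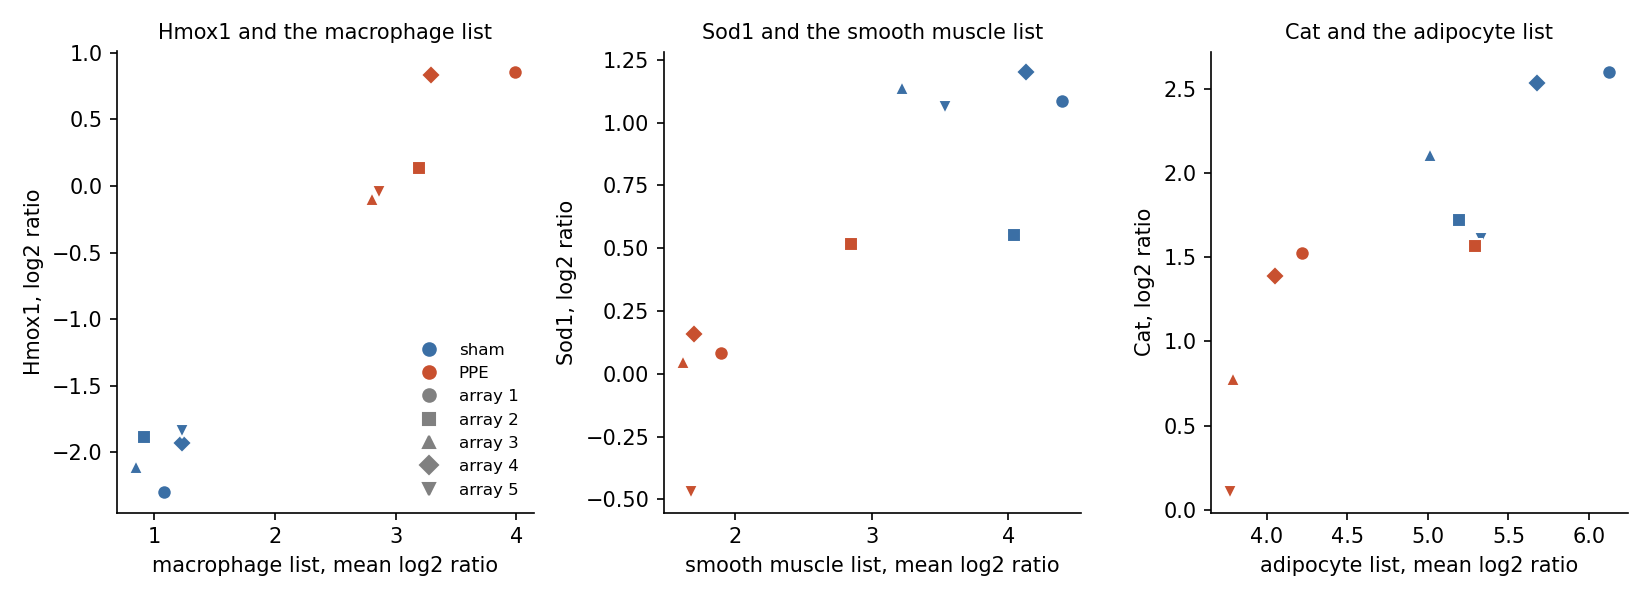
Each point is an array (blue sham, red PPE, shape the array number), placed by the mean log2 ratio of a marker list (horizontal axis) and the log2 ratio of a member (vertical axis), for Hmox1 with the macrophage list, Sod1 with the smooth muscle list and Cat with the adipocyte list. The pairs were chosen after their values were seen; the groups are apart on both axes for Hmox1 and Sod1, and PPE 2 lies beside the sham arrays for Cat, with an adipocyte mean of 5.29.

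The genes whose pattern over the 10 arrays was most like that of a member, among 10639 names matched to RefSeq and above background on every array, were taken for the 4 members with the largest differences. For Hmox1 they were Stfa2, a cysteine protease inhibitor of the stefin family (Pearson r = 0.994), and Cd68, a lysosomal protein of macrophages (r = 0.992). For Nqo1 they were Hddc3 (r = 0.963) and Wdr83 (r = 0.959), for Cat Gstt2 (r = 0.991) and Gm6684 (r = 0.990), and for Txnrd1 Trpv2 (r = 0.987) and Pabpc1 (r = 0.981). The arrays share the difference between the groups, so the correlation was also taken on deviations from the group means. It was then 0.93 for Stfa2 and 0.88 for Cd68 with Hmox1, 0.88 and 0.86 for the genes most like Nqo1, 0.99 for both genes most like Cat, and 0.97 and 0.96 for those most like Txnrd1. The genes had been picked for the highest r among 10639 names over the same 10 arrays. These values are therefore no independent support for a link.

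Genes around the members in the same pathways were read from 9 lists of 117 names in all, of which 112 were tested. Of these 112, 19 (17.0%) were higher and 36 (32.1%) lower in PPE aortas, with a median difference of -0.25, where 13.8% of all names were higher and 9.96% lower. As among the members, each direction was found, and which of them prevailed differed from list to list. With median centring in place of loess 1 of these genes, Mt2, was called.

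Among the regulators of NRF2, 1 of 11 rose (9.09%, beside 13.8% of all names) and 2 fell (18.2%, beside 9.96%). Bach1, the repressor of Hmox1, rose by 1.42 (SE 0.17, limma adjusted p = 5.94e-05) in the same aortas in which Hmox1 rose. Mafk, a small MAF partner of both NRF2 and BACH1, fell by 0.71, and Sqstm1, the p62 protein that binds KEAP1, fell by 0.65. With median centring Sqstm1 was at 0.03, or -0.38 relative to all names. Sqstm1 kept its call in 14 of 24 alternatives, among them slide as a random block but not slide as a fixed block. Nfe2l2, the gene of NRF2 itself, differed by 0.59 (SE 0.22, adjusted p = 0.0641) and Keap1 by 0.19 (adjusted p = 0.436), neither past the threshold.

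The glutathione transferases, which join glutathione to electrophiles and include several classical NRF2 targets, had the highest number of calls, in the longest list. Of 22 tested 14 were lower (63.6%, beside 9.96% of all names) and 0 higher, with a median difference of -0.92. The median stayed below 0 with median centring (-0.31), where 0 were called and Gstp2 went from -0.61 to 0.32, or -0.089 relative to all names. Gstm1 fell by 2.52 and Gsta3 by 2.39. Some members of this family are nearly identical, so a probe may read more than 1 of them. The mean of the list lay between 0.43 and 0.73 on the sham arrays and between -0.58 and -0.23 on the PPE arrays, without overlap.

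Genes that make, recycle and use glutathione went both ways, with 5 of 14 higher (35.7%, beside 13.8% of all names) and 2 lower (14.3%, beside 9.96%). Glrx, glutaredoxin, rose by 1.60, Gpx7, a peroxidase of the endoplasmic reticulum, by 1.54, and Gsr, glutathione reductase, by 1.36. Gpx7 kept its call in 21 of 24 alternatives and lost it with the deposited log ratios, where 4 of the 14 were higher. Leaving out 1 array at a time gave 3 to 5 higher. Oplah, oxoprolinase, fell by 1.14 and Gpx4, the peroxidase that protects membrane lipids, by 1.08. Slc7a11 and Ggt1 did not reach the brightness needed for a test.

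Among thioredoxins and peroxiredoxins 2 of 14 were higher (14.3%, beside 13.8% of all names) and 3 lower (21.4%, beside 9.96%). The share of higher genes was near that of all names. Prdx1, a cytosolic peroxiredoxin, rose by 0.88 and Txn1, the substrate of Txnrd1, by 0.54. Txn1 kept its call in 14 of 24 alternatives and lost it with slide as a fixed block, but not with slide as a random block. Txnrd3, another thioredoxin reductase, fell by 1.48, and Txnip, which binds and inhibits thioredoxin, fell by 1.31. The genes that supply NADPH for both systems had 1 of 7 higher (14.3%, beside 13.8% of all names) and 4 lower (57.1%, beside 9.96%). Pgd of the pentose phosphate pathway was higher, at 0.66, and Me1, malic enzyme, at -2.10 and Tkt, transketolase, at -1.44 were lower. Pgd kept its call in 14 of 24 alternatives and lost it with slide as a fixed block, but not as a random block. The median of the NADPH genes was -0.62, and with median centring 0.28, which was -0.13 relative to all names.

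Haem and iron genes, which handle the substrate and the products of haem oxygenase, had 3 of 15 higher (20.0%, beside 13.8% of all names) and 2 lower (13.3%, beside 9.96%), with a median of 0.50. These shares were near those of all names. Slc11a1, an iron and manganese transporter of phagocyte vesicles, rose by 2.08, Ftl1, the ferritin light chain, by 1.05, and Hmox2, the constitutive haem oxygenase, by 0.82. Slc48a1, a haem transporter, fell by 0.81 and Fech, the enzyme that inserts iron into haem, by 0.62; with median centring Fech was at 0.10, or -0.31 relative to all names.

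Of 11 other NRF2 targets 4 were higher (36.4%, beside 13.8% of all names) and 3 lower (27.3%, beside 9.96%). Akr1b8, an aldo-keto reductase, rose by 0.96, Abcc4, an export pump, by 0.85 and Osgin1 by 0.83. Osgin1 kept its call in 12 of 24 alternatives and lost it with the deposited log ratios, without the filter on dim probes and in 7 of 10 fits that left out 1 array. Aox1, aldehyde oxidase, fell by 1.69 and Ephx1, the microsomal epoxide hydrolase, by 1.67. In the list on copper and metallothionein 3 of 6 were higher and 0 lower, with Mt2, a metallothionein that binds zinc and copper, at 2.24, Atp7a, the copper pump that loads Sod3, at 0.95 (kept in 16 of 24 alternatives and lost with slide as a block) and Atox1, a copper chaperone, at 0.70. Ccs, the chaperone that loads Sod1 with copper, differed by -0.38 (limma adjusted p = 0.0205). Ccs is named beside the rule for named genes, chosen after its value was seen.

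Peroxisomal genes, from the organelle that holds catalase, had 0 of 12 higher and 6 lower. Abcd3, a transporter of the peroxisomal membrane, fell by 1.39. All 12 differences were negative, and the median was -0.58; with median centring the median was 0.04 and Pex19 went from -0.54 to 0.07, which relative to all names were -0.37 and -0.34. The peroxisomal and the NADPH genes include ones that fat cells express strongly, and the adipocyte list means given above moved in the same direction, but their part in these falls was not tested.

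**Figure D5:**
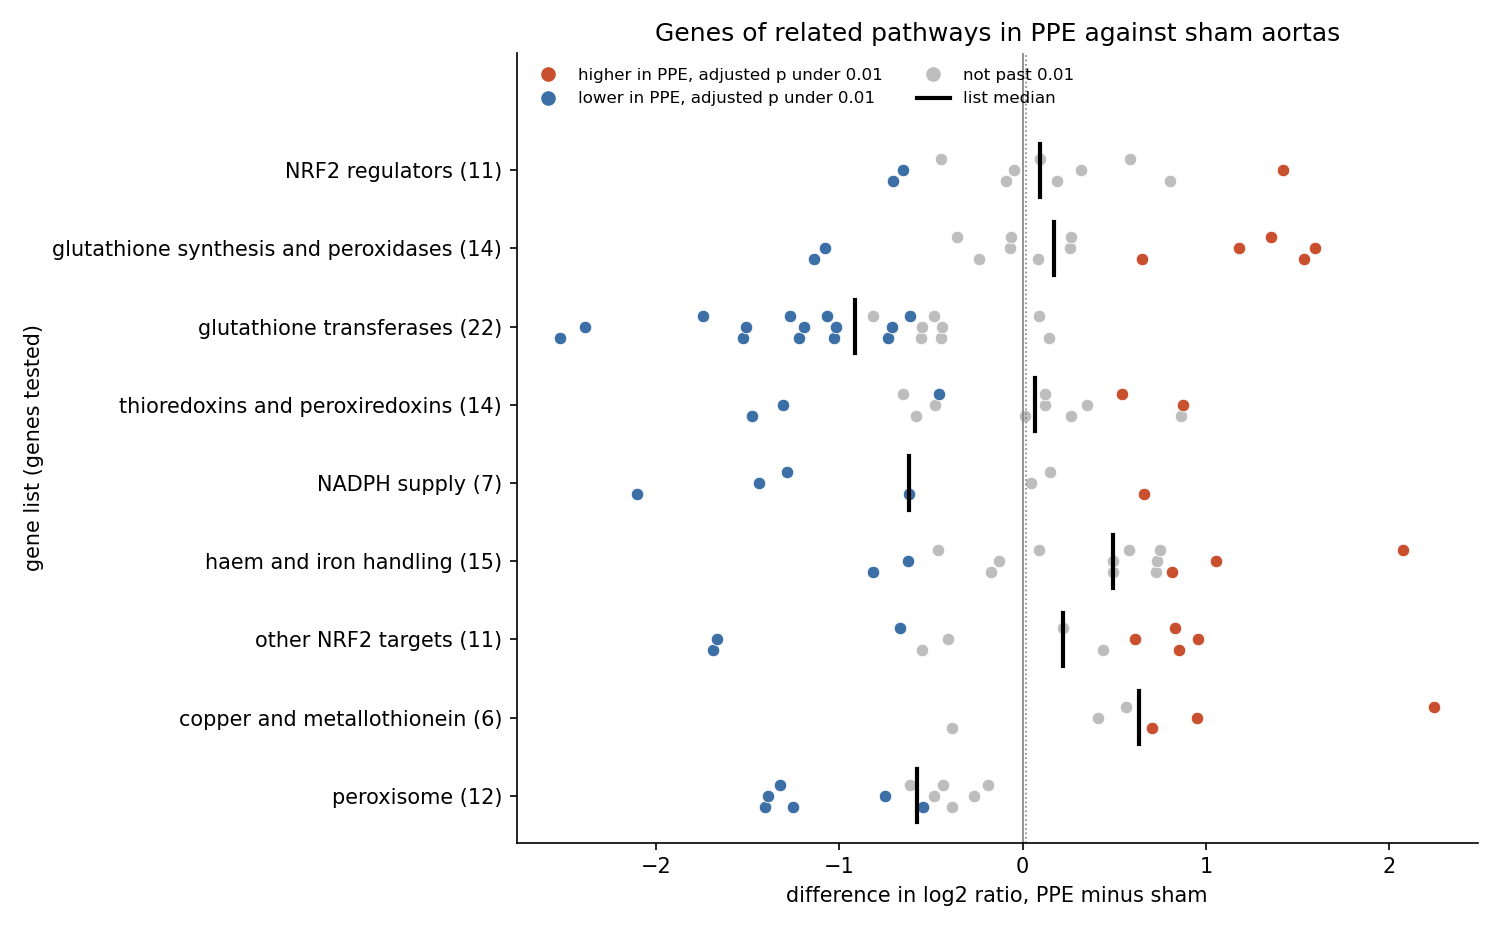
Each point is a gene of the pathway list named on the vertical axis, placed by its difference in log2 ratio, PPE minus sham (horizontal axis), red or blue where the adjusted p was under 0.01, with a black bar at the list median and a dotted line at the median of all names. Glutathione transferases and peroxisomal genes have called genes on the lower side alone, 14 of 22 and 6 of 12, beside 9.96% of all names. The other lists but the copper list have called genes on both sides. These directions are for loess, and with median centring the peroxisome median is 0.04, or -0.37 relative to all names.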

How the data were processed

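Probes of a SurePrint G3 8x60K array were measured by the authors, with 500 ng of aortic RNA in Cy5 (red) against a reference RNA in Cy3 (green), on 10 arrays without a dye swap. The authors deposited Agilent Feature Extraction 10.7.3.1 output, with red and green intensity per spot and a log10 ratio, and log2 ratios as a table of values. That table equalled the log2 ratio of the processed signals on 100% of spots (tolerance 1e-04) and was not centred (column medians -0.160 to 0.123). The study left out arrays of poor hybridization and outliers, and which ones is not given in the sources used here.

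Mean intensity was background-corrected (normexp, offset 50) and loess-normalized within arrays in limma 3.58.1 (R 4.3.3), with control and outlier spots at weight 0. Red signal was well above background on 37.6% (sham 5) to 65.8% (PPE 1) of spots. Of 59305 spots that were not controls, probes with red above background on at least 5 of 10 arrays were tested, and the brightest represented its gene name. PPE and sham arrays were compared unpaired with lmFit and eBayes at an adjusted p under 0.01, after the study's 1%. The arrays lay on 5 slides, and precision rests on 5 arrays a group. Probe positions are on mm9, the exon and UTR annotation of which was not used here, and promoters on GRCm38.p6; they were not mixed.

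The members, gene lists and tests were chosen with earlier results of these data known. The genes named from a list are the up to 3 called genes with the largest rise and the up to 2 with the largest fall, with Nfe2l2, Keap1 and the defining cell markers; 1 gene that this rule names is not reported here. No p is given for a list.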

Additional observations from a re-analysis of the deposited data

Results flagged for a closer look

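In 2 of 22 groups of values 1 array stood apart from the other 4 by Dixon's ratio, where chance gives about 5% of groups. The groups were each member in sham and in PPE, and the share of red spots above background in sham and in PPE. Sod1 on sham 2 was at 0.55 (nearest array 1.06, ratio 0.790), below the other sham arrays and close to the highest PPE value. Gclc on PPE 2 was at -0.22 (nearest array -0.85, ratio 0.942), above the other PPE arrays. The critical ratio for 5 arrays is 0.71.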

How the results depend on the processing

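In 24 alternatives Hmox1 kept its call in 23 (range 1.75 to 2.92) and Nqo1 in 23 (-1.54 to -0.55), the exception for both being median centring in place of loess. That setting gave 0 members higher and 0 lower, and reversed Gclc (0.026), Gclm (0.31), Sod2 (0.42) and Sod3 (0.28), which relative to the median of all names, then 0.41, were -0.38, -0.096, 0.0071 and -0.13; it called 408 names higher and 8 lower, 98.1% higher against 58.1%. The count of members higher was 1 (Hmox1) with no filter on dim probes (Txnrd1 adjusted p = 0.0136, Gclc 0.0103) and with scan day as a block (Txnrd1 0.0105), an alternative chosen after seeing the data, like leaving out sham 5 and PPE 5 together, which gave 2 higher and 3 lower. Leaving out 1 array at a time gave 1 to 2 members higher and 2 to 3 lower. Srxn1, near 0, reversed with scan day as a block (-0.015) and without sham 2, PPE 2 or PPE 4, with values from -0.080 to 0.15 when 1 array was left out, and Sod2 minus Sod3 reversed without sham 5, PPE 1 or PPE 4, with values from -0.15 to 0.33. With slide as a fixed block Gclc (adjusted p = 0.0121) and Sod1 (0.0118) lost their calls and Cat gained one (0.00537). With slide as a random block Gclc (limma adjusted p = 0.00215), Sod1 (0.000977) and Cat (0.00422) were all called. SAM called 4788 names higher and 3545 lower, and Cat (-1.04) among the members. The cause of these changes was not tested. Aquantile scaling leaves ratios as they are by construction, and the deposited log ratios and the deposited table of log2 ratios gave nearly the same member differences. The 24 alternatives are therefore not independent of each other, and a count of them does not measure support.

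Arrays of the same label number deviated together with r of 0.29, -0.30, 0.16, -0.14 and 0.52, so the numbers were not taken as pairs, and 1 of 5 sham arrays matched its own number best. With the replicate block 2 members were higher and 3 lower, with Gclc lost (adjusted p = 0.0141) and Cat called (0.00401).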
